A study of Rattus norvegicus with 9 samples.

Results

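Genes of cholesterol synthesis, of its control by sterol regulatory element-binding proteins (SREBPs), and of sterol transport were followed in cultured rat Sertoli cells, the somatic cells that nurse germ cells inside the seminiferous tubule. The group was chosen by gene name, with earlier results of these data known, and holds 31 genes, of which 30 were found on the array. All 30 passed the filter on dim probes and were tested among 22651 genes. They fall into 9 enzymes from acetyl-CoA to squalene and its isoprenoid branch, 11 enzymes from squalene to cholesterol, 5 regulators, and 5 genes of transport and storage. Npc1 was not found by name and is not analysed here. In the oldest cultures, 15 of the 20 synthetic enzymes, the transcription factor gene Srebf1 and the feedback gene Insig1 were lower than in the youngest, on a scale set by all genes of each array, while Ggps1 and Scap were higher and none of the 5 transport and storage genes was called. Of all genes tested, 35.3% were called in that comparison, 18.0% lower and 17.3% higher.

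The cells came from testes of rats aged 5, 12 or 60 days, with 3 arrays per age. All 9 cultures were kept for 4 days in defined medium and then given pulses of 50 ng/ml oFSH (a follicle-stimulating hormone) together with 1e-07 M testosterone over 11 h. No culture without the hormones was measured, so the ages are compared under hormone in every case. Whether the 3 replicates of an age are different animals or different cultures is not in the labels, so a p-value here is set against a spread between samples that may be technical. Each slide carried 1 array of every age, always in the same place, and place and age cannot be told apart.

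Cholesterol is built from acetyl-CoA by way of mevalonate, farnesyl diphosphate and squalene, and farnesyl diphosphate is also the branch point for the isoprenoid tails that anchor small GTPases. SREBPs are made as membrane-bound precursors. When membranes are poor in sterol, the escort protein SCAP carries them to the Golgi, where they are cut and released to switch on genes of sterol and fatty acid synthesis; when sterol is plentiful, INSIG proteins hold SCAP back. Sertoli cells make cholesterol, take it up and handle lipid from the residual bodies and dying germ cells that they engulf.

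The probe letters show what was measured on both sides of the farnesyl diphosphate branch point, where Fdps, the enzyme that makes farnesyl diphosphate, fell in 60-day cultures and Fdft1, the enzyme that turns it into squalene, was not called. Both oligonucleotides are printed as the array files give them, with positions in the rn4 build; the Fdps oligonucleotide covers a wider stretch of the genome than its own length. No annotation of that build was used here, so exons and introns are not named for any probe.
Fdps probe, chr2:181170192-181170336, minus strand: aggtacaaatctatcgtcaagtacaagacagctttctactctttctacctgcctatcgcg
Fdft1 probe, chr15:42436506-42436565, minus strand: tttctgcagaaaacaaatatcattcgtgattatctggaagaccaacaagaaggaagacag

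Levels are given as the log2 signal over the 75th percentile of the same array, so that 0 is a gene at that percentile, and 3 values in a row are those of replicates 1, 2 and 3. A gene was called when the moderated test of limma gave an adjusted p under 0.05 after Benjamini-Hochberg adjustment over all 22651 genes. "Rose" and "fell" are used of called genes only. The 75th percentile lay between 149 and 435 intensity units, and 49.1% to 63% of probes per array were well above background. The comparisons share arrays: the 12-day arrays enter both steps, and the 5-day and 60-day arrays enter the long comparison again.

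The marker genes of the cultures moved with age. The log2 summed level of 14 Sertoli markers was 5.24 to 5.44 on 5-day arrays, 7.54 to 7.75 on 12-day arrays and 8.22 to 8.25 on 60-day arrays. On the 5-day arrays 11 of the 14 were well above background every time. Sox9, a defining Sertoli transcription factor, was the only one not well above background on any 5-day array. Of 10 spermatocyte markers, 9 were not well above background on any 5-day array, and their summed level was -1.06 to -0.48 at 5 days, 3.83 to 4.29 at 12 days and 6.47 to 7.41 at 60 days. Summed levels of 9 spermatid markers were -2.13 to -1.26, -1.58 to -1.42 and 3.56 to 4.25 at the 3 ages, those of 4 spermatogonial markers 3.06 to 3.54, 3.49 to 4.08 and 5.86 to 6.34. The spermatogonial markers did not move together. In 12-day against 5-day cultures Taf7l and Ddx4 rose by 5.91 and 4.76, while Gfra1 fell by 2.38. The 6 Leydig cell markers summed to 4.04 to 4.89 at 5 days, 0.19 to 1.06 at 12 days and 0.60 to 1.23 at 60 days, the 8 macrophage markers to 2.71 to 3.52, 1.05 to 1.26 and 1.39 to 1.58, and the 8 peritubular and fibroblast markers to 8.79 to 9.74, 8.64 to 9.26 and 7.70 to 8.67. A sum follows the brightest genes of its list and does not show how far single genes moved. In 60-day against 12-day cultures 5 of the 14 Sertoli markers rose and 1 fell. Of the Leydig cell markers 2 fell and none rose, with a median of 0.76, and of the macrophage markers 3 rose and none fell. Of all genes 12.2% rose and 13.0% fell there. In 12-day against 5-day cultures 2 of the 8 peritubular and fibroblast markers fell, Lum (-5.82) and Dcn (-5.61), and none rose, with a median of -0.04. In 60-day against 5-day cultures 5 fell and none rose, with a median of -2.50. Lum, Tnnt2 and Dcn then differed by -7.55, -7.51 and -6.09. Fewer cells of a type and less RNA per cell cannot be told apart in such cultures, and the part of all these marker lists in the results on sterol genes was not tested.

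The enzymes that make mevalonate and turn it into farnesyl diphosphate were mostly lower at 60 days, with log2 fold changes of -2.84 to -1.47 against 5 days in the 6 that fell. Acat2, the cytosolic thiolase that opens the pathway, had levels of 5.93, 5.92 and 5.84 on 5-day arrays, 4.77, 5.08 and 4.91 on 12-day arrays, and 3.44, 2.85 and 2.89 on 60-day arrays. The 3 ages did not overlap. Acat2 was lower by 2.84 ± 0.30 (SE, n = 3 per age) at 60 days than at 5 days, a 7.15-fold difference (limma, adjusted p = 3.49e-05), and by 1.86 ± 0.30 than at 12 days (adjusted p = 0.00113). Between 12 and 5 days its difference of -0.98 was not called (adjusted p = 0.0627), although once the replicate number was blocked it was (adjusted p = 0.0444).

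Hmgcs1 makes HMG-CoA, and its probe read 1.20, 2.98 and 1.68 at 5 days, 0.89, 2.03 and 1.05 at 12 days, and 0.55, 0.77 and 0.13 at 60 days. Replicate 2 was the highest at each age. The fall of 1.47 ± 0.49 in 60-day against 5-day cultures (adjusted p = 0.0383) was lost without any one of 5 arrays (60-day replicates 1, 2 and 3, 5-day replicates 2 and 3), with adjusted p between 0.0541 and 0.147. A brighter Hmgcs1 probe was left out because it had no spot that passed the quality flags in 5-day replicate 1. Where it was measured it read 7.08 and 5.98 in 5-day replicates 2 and 3, 6.06, 6.42 and 5.78 at 12 days, and 6.0, 4.94 and 4.32 at 60 days.

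Mevalonate is then phosphorylated and decarboxylated. Mvk, mevalonate kinase, had 1.18, 1.58 and 1.37 at 5 days, 0.60, 0.62 and 0.87 at 12 days, and -1.13, -0.13 and -0.73 at 60 days. Mvd, which decarboxylates the diphosphate, had 4.42, 4.34 and 4.06, then 3.75, 3.61 and 3.97, then 2.84, 2.21 and 2.00 at the same ages. In both genes each later age lay wholly below the earlier one. Mvk was 4.12-fold lower at 60 days than at 5 days (log2 fold change -2.04 ± 0.34, adjusted p = 0.000743) and Mvd 3.79-fold lower (-1.92 ± 0.33, adjusted p = 0.000897). Against 12 days they fell by 1.36 and 1.43 (adjusted p = 0.0131 and 0.00871). Pmvk, the kinase that acts between them, was not called in any comparison. Its 60-day against 5-day difference was -0.38, with a 95% interval of -1.06 to 0.30.

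The isomerase and the synthase that follow were called after 12 days and not before. Idi1, which interconverts the isoprene units, read 5.47, 4.94 and 5.26 at 5 days, 4.84, 4.88 and 5.43 at 12 days and 3.65, 3.06 and 3.47 at 60 days, so that 5- and 12-day arrays overlapped and 60-day arrays lay below both. Fdps, shown by its probe above, read 6.46, 6.48 and 6.47 at 5 days, 6.13, 6.34 and 6.43 at 12 days and 4.58, 4.57 and 4.72 at 60 days. The spread of Fdps within an age was the smallest in this arm at 5 and 60 days (SD 0.01 and 0.08). Idi1 fell 3.15-fold between 60-day and 12-day cultures (-1.65 ± 0.33, adjusted p = 0.00394) and Fdps 3.20-fold (-1.68 ± 0.28, adjusted p = 0.00133); their 12-day against 5-day differences were -0.18 and -0.17 (95% intervals -0.91 to 0.56 and -0.79 to 0.45). Against 5 days the 60-day cultures differed by -1.83 for Idi1 and -1.85 for Fdps (adjusted p = 0.0013 and 0.000409). Whether the 2 steps differ from each other was not tested. The second Idi1 probe was also lower at 60 days than at 5 days when every probe was tested, at -1.10 ± 0.33 (limma, adjusted p = 0.023). A probe that carries the Fdps name only in the files of replicate 3 gave -1.38 ± 0.35 (adjusted p = 0.0104). It lies at chr2:181158404-181158463, outside the stretch of the Fdps probe printed above, and whether it measures Fdps was not tested.

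The 2 enzymes that draw on farnesyl diphosphate had no fall that was called. Fdft1, squalene synthase, read 0.66, 0.73 and -0.65 at 5 days, 0.00, 0.29 and -0.77 at 12 days and 0.39, 0.21 and -0.38 at 60 days, with the ages overlapping throughout. Its 60-day against 5-day difference was -0.18, and the 95% interval of -1.19 to 0.84 holds a fall of over 2-fold as well as no fall. Ggps1, geranylgeranyl diphosphate synthase, which serves protein prenylation, read -2.89, -2.37 and -4.41 at 5 days, -2.13, -1.86 and -2.35 at 12 days and -1.30, -1.33 and -1.79 at 60 days, without overlap between any ages. It rose 3.36-fold in 60-day against 5-day cultures (1.75 ± 0.48, adjusted p = 0.016), but 1 of its 3 5-day values was not well above background, and without 60-day replicate 2 its adjusted p was 0.0539.

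**Figure D1:**
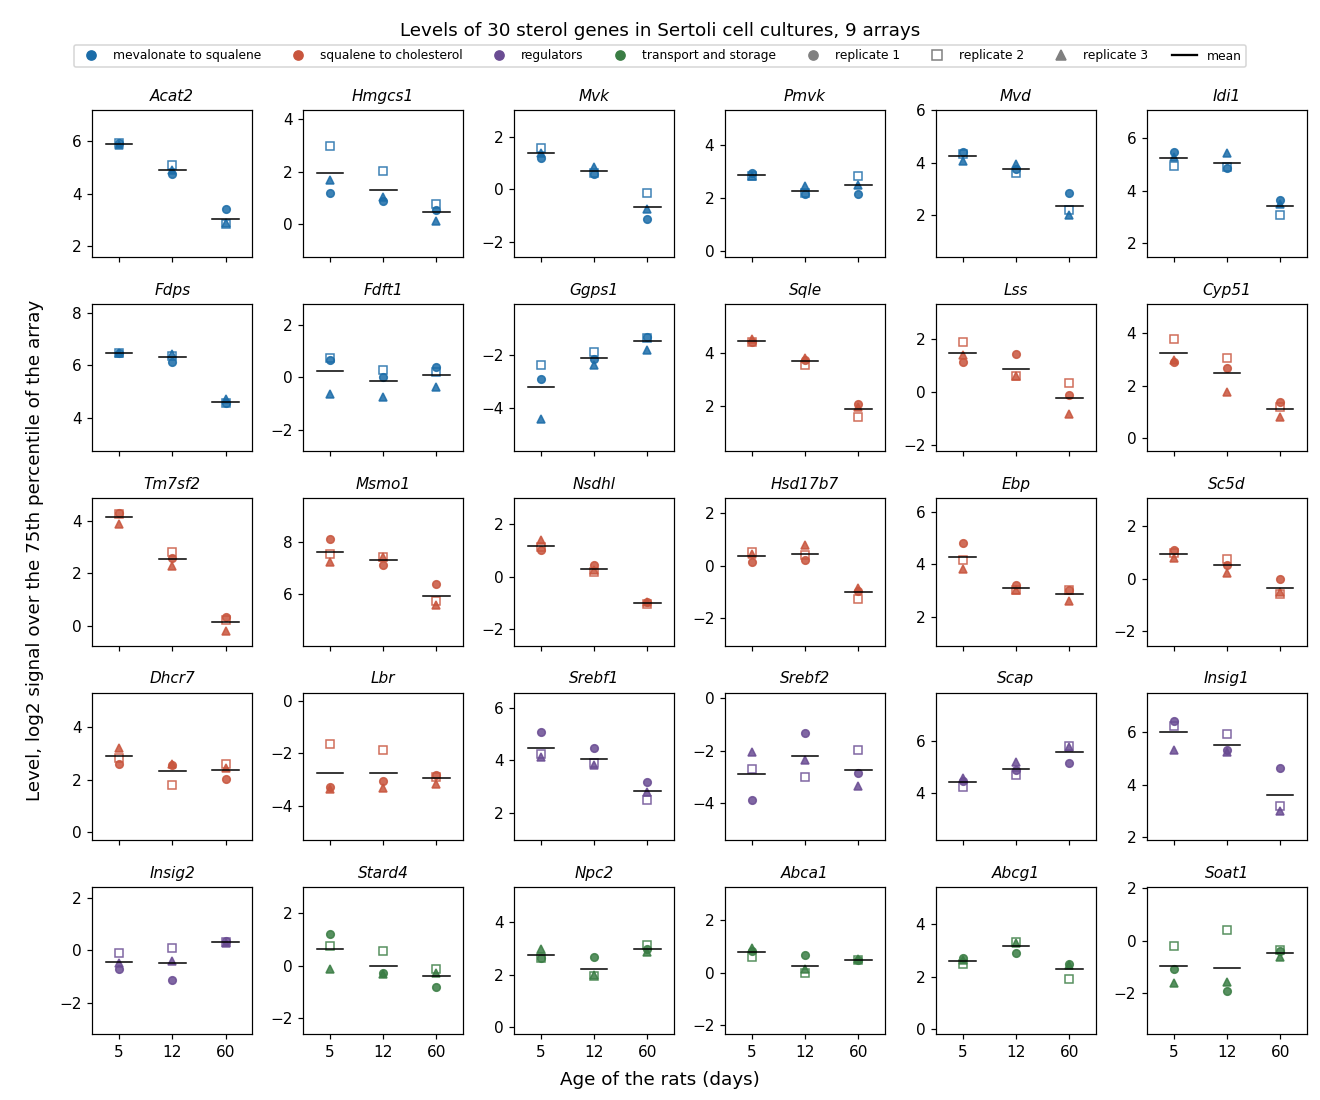
Level of each of the 30 genes on the 9 arrays, as the log2 signal over the 75th percentile of the array, against the age of the rats in days; colours give the role, symbols the replicate and bars the mean of 3 arrays, and every panel spans the same range of log2 units. Tm7sf2 has the widest spread of ages, with means of 4.13, 2.55 and 0.12, and Ggps1 and Scap climb.

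Counted together, the 9 genes of this arm had no call in 12-day against 5-day cultures, where 12.4% of all genes were called and 6.29% fell, and 2 of them had an unadjusted p under 0.05 in limma. In 60-day against 12-day cultures 5 fell and none rose, where 25.2% of all genes were called and 13.0% fell. In 60-day against 5-day cultures 6 fell and 1 rose, where 35.3% of all genes were called, 18.0% falling and 17.3% rising. The median log2 fold changes of the arm were -0.50, -1.36 and -1.83 in these 3 comparisons, beside 0.05, -0.16 and -0.08 over all genes.

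From squalene on, 9 of the 11 enzymes were lower at 60 days than at 5 days, and 2 of them, Tm7sf2 and Ebp, were already lower at 12 days. Sqle, squalene epoxidase, a rate-limiting enzyme of the later pathway, read 4.40, 4.41 and 4.54 at 5 days, 3.74, 3.56 and 3.82 at 12 days and 2.05, 1.57 and 1.94 at 60 days. It was 6.05-fold lower at 60 days than at 5 days (-2.60 ± 0.29, adjusted p = 5.07e-05) and 3.61-fold lower than at 12 days (-1.85 ± 0.29, adjusted p = 0.000939). Lss, which folds the epoxide into lanosterol, read 1.14, 1.92 and 1.39 at 5 days, 1.43, 0.59 and 0.60 at 12 days and -0.13, 0.33 and -0.84 at 60 days. Its 60-day arrays lay below all others, and it fell by 1.70 ± 0.41 against 5 days (adjusted p = 0.00767). Against 12 days the difference of -1.09 was not called (adjusted p = 0.0783), except once the replicate number was blocked (adjusted p = 0.0469).

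Cyp51 removes a methyl group from lanosterol, and the double bond it leaves is reduced by either of 2 related membrane proteins, Tm7sf2 or Lbr. Cyp51 read 2.91, 3.79 and 2.99 at 5 days, 2.65, 3.03 and 1.77 at 12 days and 1.37, 1.17 and 0.80 at 60 days. It was 4.33-fold lower at 60 days than at 5 days (-2.12 ± 0.41, adjusted p = 0.00204). Its fall of 1.37 ± 0.41 against 12 days (adjusted p = 0.0318) was lost without 12-day replicate 1 or 2 or without 60-day replicate 2 or 3 (adjusted p 0.0778 to 0.11).

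Tm7sf2 had the largest change of the 30 genes in each comparison. Its probe, at chr1:208700867-208700926 on the minus strand of rn4, read 4.27, 4.25 and 3.88 at 5 days, 2.58, 2.81 and 2.26 at 12 days and 0.32, 0.22 and -0.19 at 60 days. No array of one age reached those of another, and the change on each slide was between -4.06 and -3.95 in 60-day against 5-day cultures. In that comparison Tm7sf2 fell by 4.02 ± 0.32, or 16.2-fold (adjusted p = 4.47e-06); 60-day against 12-day cultures differed by -2.44 ± 0.32, or 5.41-fold (adjusted p = 0.000261), and 12-day against 5-day cultures by -1.58 ± 0.32, or 2.99-fold (adjusted p = 0.00773). Lbr, which can carry out the same reduction and also tethers heterochromatin at the nuclear envelope, read -3.30, -1.65 and -3.35 at 5 days, -3.06, -1.88 and -3.33 at 12 days and -2.82, -2.91 and -3.17 at 60 days. Its ages overlapped in every comparison. The 60-day against 5-day difference of Lbr was -0.20, with a 95% interval of -1.35 to 0.96 that does not reach the fall of Tm7sf2, although the difference between the 2 genes was not itself tested and 1 of the 3 12-day values of Lbr was not well above background. Lbr was also dim, with a 5-day mean of -2.77. On the 5-day arrays the dimmest probes well above background read -4.06, -4.00 and -3.97. A fall as large as that of Tm7sf2 could thus not have been measured in full for Lbr.

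Msmo1, Nsdhl and Hsd17b7 then strip the remaining methyl groups from the sterol ring. Msmo1, the methyl oxidase, read 8.11, 7.53 and 7.24 at 5 days, 7.12, 7.43 and 7.44 at 12 days and 6.40, 5.77 and 5.60 at 60 days; its probe was saturated on the 5-day and the 12-day array of replicate 2, so those 2 values are lower bounds. Nsdhl, the dehydrogenase, read 1.01, 1.11 and 1.41, then 0.46, 0.17 and 0.26, then -0.95, -1.06 and -0.96, and each age lay below the one before. Hsd17b7, the keto-reductase, read 0.13, 0.54 and 0.43 at 5 days, 0.20, 0.39 and 0.77 at 12 days and -0.97, -1.25 and -0.83 at 60 days. All 3 fell in 60-day against 12-day cultures, Msmo1 2.65-fold (adjusted p = 0.0142), Nsdhl 2.44-fold (adjusted p = 0.00785) and Hsd17b7 2.77-fold (adjusted p = 0.00565). Against 5 days their log2 fold changes were -1.70, -2.16 and -1.38 (adjusted p = 0.00323, 0.000171 and 0.0053). Both Msmo1 changes take the saturated spot at its reading, so its falls are at least of this size. The 60-day against 12-day call of Msmo1 was lost without 60-day replicate 2 or 3 (adjusted p 0.0555 to 0.0582).

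The last steps rearrange and saturate double bonds. Ebp, the sterol isomerase, read 4.81, 4.16 and 3.81 at 5 days, 3.21, 3.03 and 3.01 at 12 days and 3.02, 3.02 and 2.60 at 60 days. It was 2.26-fold lower at 12 days than at 5 days (-1.18 ± 0.34, adjusted p = 0.048), a call that leaving out any single array other than 5-day replicate 3 removed (adjusted p 0.0512 to 0.144), and its 60-day against 12-day difference was -0.20 (95% interval -0.96 to 0.56). Against 5 days, 60-day cultures were lower by 1.38 ± 0.34 (adjusted p = 0.00909). Sc5d, the desaturase, read 1.08, 0.97 and 0.81 at 5 days, 0.53, 0.75 and 0.24 at 12 days and -0.02, -0.56 and -0.52 at 60 days. It fell by 1.32 ± 0.31 in 60-day against 5-day cultures (adjusted p = 0.00684). Against 12 days its -0.87 gave an adjusted p of 0.0648, or 0.0373 with replicates blocked and 0.0448 without 60-day replicate 1. Dhcr7, which makes cholesterol from its last precursor, differed by -0.53 in 60-day against 5-day cultures (95% interval -1.31 to 0.24) and was not called.

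**Figure D2:**
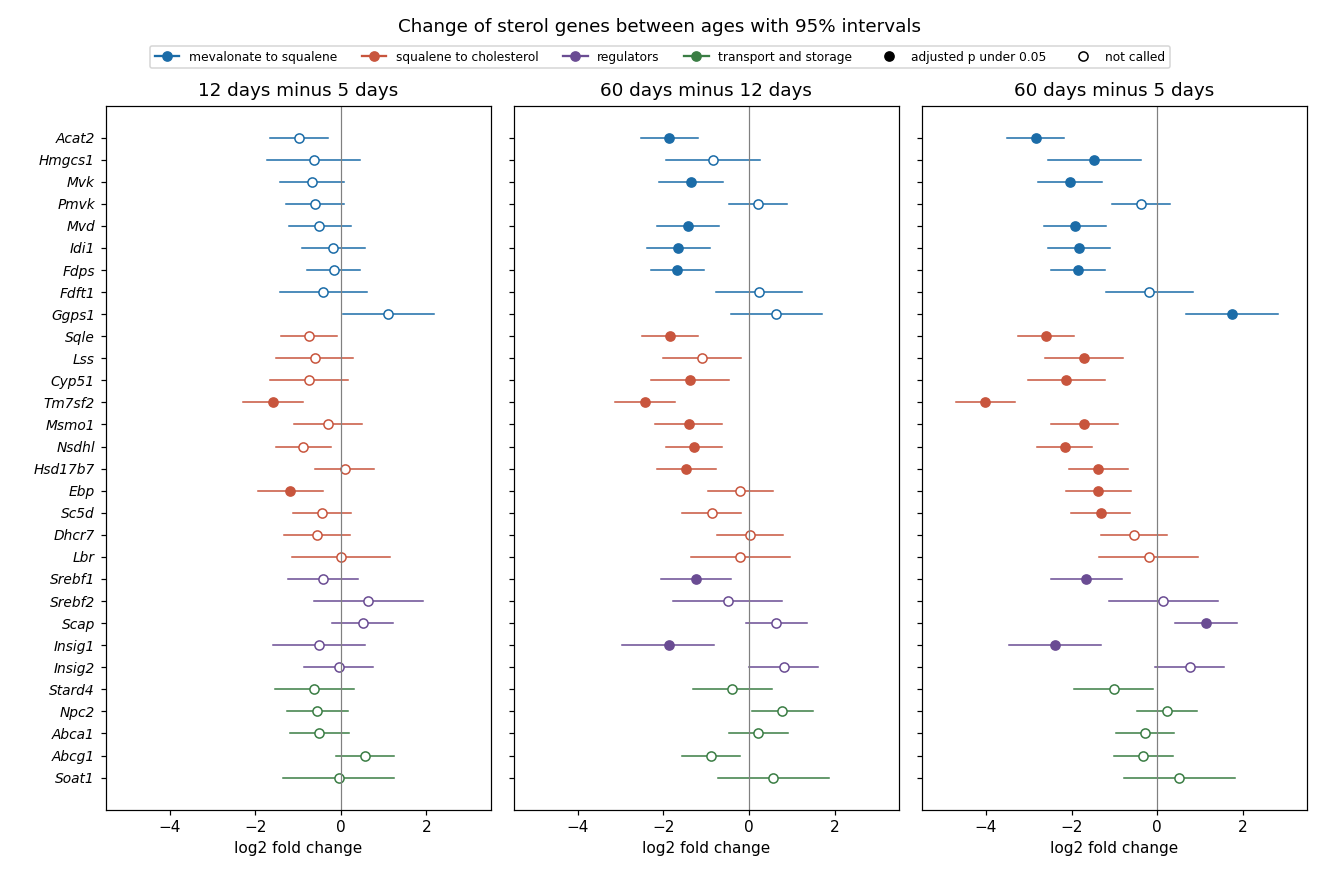
Log2 fold change of each gene in 3 comparisons of ages with its 95% interval from limma (n = 3 arrays per age); filled points have an adjusted p under 0.05 and colours give the role. Filled points number 2, 13 and 19 from left to right, and those right of 0 are Ggps1 and Scap in the last panel.

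Of the 11 later enzymes, 2 fell and none rose in 12-day against 5-day cultures, 6 fell and none rose in 60-day against 12-day cultures, and 9 fell and none rose in 60-day against 5-day cultures, where 6.29%, 13.0% and 18.0% of all genes fell and 12.4%, 25.2% and 35.3% were called in either direction. The medians of the 11 were -0.61, -1.29 and -1.70. By slide, the median of these 11 enzymes in 60-day against 5-day cultures was -1.54, -1.76 and -1.64, and that of the 9 earlier enzymes -1.58, -1.88 and -1.75, while all genes had -0.31, 0.09 and -0.01. Over all 30 genes, 10 had every 12-day array below every 5-day array and 3 had every one above, where 28.6% of all genes did not overlap in one direction or the other. In 60-day against 12-day cultures 17 lay below and 3 above, where 40.6% of all genes did not overlap and 22.6% lay below. In the long comparison 19 had every 60-day array below every 5-day array and 3 had every 60-day array above, where 47.4% of all genes did not overlap, 25.1% lying below and 22.3% above.

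**Figure D3:**
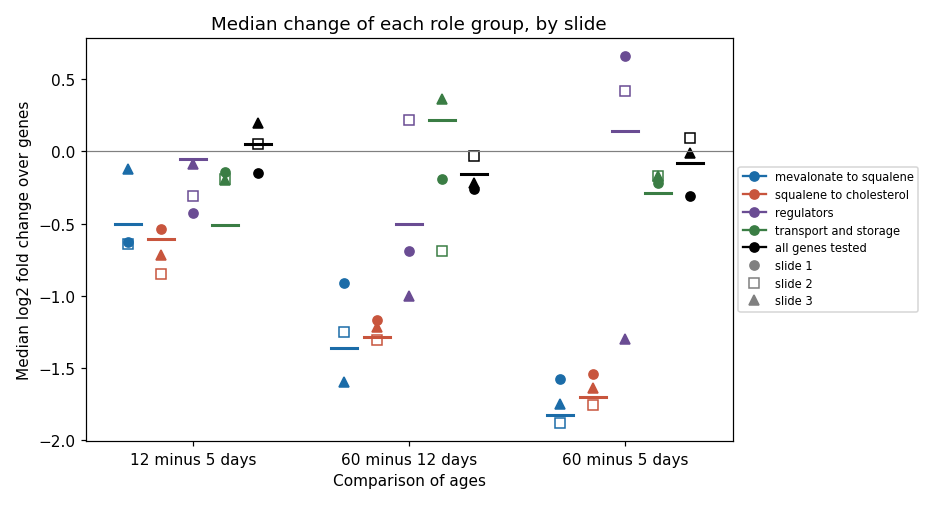
Median log2 fold change over the genes of each role and over all genes tested, for 3 comparisons of ages; symbols give the median within each of the 3 slides, each holding 1 array per age, and bars the median of the changes fitted over 9 arrays. Both enzyme groups lie below all genes tested on each of the 3 slides in 60-day against 12-day and in 60-day against 5-day cultures.

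The regulators moved in different directions. Insig1, whose protein holds SCAP back when sterol is plentiful and which is itself an SREBP target, read 6.42, 6.24 and 5.33 at 5 days, 5.33, 5.91 and 5.23 at 12 days and 4.64, 3.20 and 2.98 at 60 days. The 60-day arrays lay below all others, and replicate 1 was the highest of them. Insig1 fell 5.24-fold in 60-day against 5-day cultures (-2.39 ± 0.49, adjusted p = 0.0028), and its 3 other probes gave -2.11, -1.89 and -2.05 (adjusted p 0.000531, 0.00359 and 0.0113 when every probe was tested). Against 12 days it fell by 1.88 ± 0.49 (adjusted p = 0.0157), which was lost without 12-day replicate 2, 60-day replicate 2 or 60-day replicate 3 (adjusted p 0.056 to 0.0656). Insig2, a paralogue that also holds SCAP back, read -0.72, -0.13 and -0.50 at 5 days, -1.15, 0.07 and -0.43 at 12 days and 0.36, 0.30 and 0.28 at 60 days. Its 60-day arrays lay above all others, but the difference of 0.76 against 5 days was not called (95% interval -0.05 to 1.57, adjusted p = 0.136), nor was that of its second probe (0.85 ± 0.52, adjusted p = 0.237).

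Srebf1 and Srebf2 encode the SREBPs, Srebf1 with a bias to fatty acid genes and Srebf2 to sterol genes. The brightest Srebf1 probe read 5.06, 4.24 and 4.12 at 5 days, 4.46, 3.89 and 3.83 at 12 days and 3.18, 2.49 and 2.81 at 60 days, with 60-day arrays below all others. It fell by 1.65 ± 0.37 in 60-day against 5-day cultures (adjusted p = 0.00524) and by 1.23 ± 0.37 against 12 days (adjusted p = 0.0333), the second call being lost without any of 5 single arrays, 12-day replicates 1, 2 and 3 and 60-day replicates 2 and 3 (adjusted p 0.0505 to 0.121). A second Srebf1 probe gave -0.89 ± 0.66 against 12 days and -0.64 ± 0.66 against 5 days, neither called (adjusted p = 0.374 and 0.49). The remaining one was not well above background on any 5-day or 60-day array, so no difference is given for it. Srebf2 read -3.86, -2.70 and -2.04 at 5 days, -1.32, -3.01 and -2.34 at 12 days and -2.84, -1.99 and -3.34 at 60 days. Its replicates spread as widely as its ages, and the 60-day against 5-day difference of 0.14 had a 95% interval of -1.13 to 1.42. A dimmer Srebf2 probe, well above background on 2, 1 and 2 arrays at 5, 12 and 60 days, gave -0.06 ± 0.80 in that comparison.

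Scap was the regulator that rose. It read 4.48, 4.25 and 4.57 at 5 days, 4.90, 4.70 and 5.21 at 12 days and 5.14, 5.82 and 5.76 at 60 days, and the 60-day and 5-day arrays did not overlap. The gain of 1.14 ± 0.32 in 60-day against 5-day cultures, 2.21-fold (adjusted p = 0.018), was lost without 5-day replicate 2, 60-day replicate 2 or 60-day replicate 3 (adjusted p 0.0656 to 0.0736). None of the 5 regulators was called, or had an unadjusted p under 0.05, in 12-day against 5-day cultures, where 12.4% of all genes were called.

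**Figure D4:**
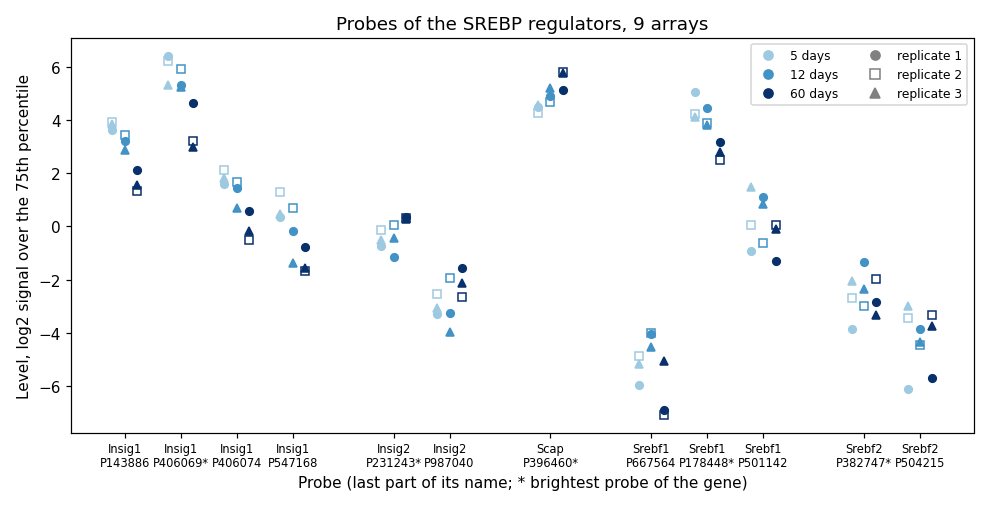
Level of each probe of the 5 SREBP regulators on the 9 arrays, as the log2 signal over the 75th percentile of the array; shades give the age, symbols the replicate, and an asterisk the brightest probe, which stands for the gene. All 4 Insig1 probes lie lower at 60 days than at 5 days (log2 fold changes of -2.39 to -1.89), while the dimmest Srebf1 probe was not well above background on any 5-day or 60-day array.

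Transport and storage genes gave no call in any of the 3 comparisons, where 12.4%, 25.2% and 35.3% of all genes were called, with 0, 2 and 1 of 5 genes at an unadjusted p under 0.05 in limma. Stard4, a soluble sterol carrier and SREBP target, came nearest in 60-day against 5-day cultures, at -1.01 ± 0.42 (adjusted p = 0.086, and 0.03 without 5-day replicate 3). Abcg1, which exports sterol to lipoproteins, averaged 2.29 ± 0.31 at 60 days and 3.17 ± 0.23 at 12 days (SD, n = 3 each), a difference of -0.88 that was called once replicates were blocked (adjusted p = 0.0422) and not without it (adjusted p = 0.0611). Npc2, the lysosomal sterol carrier, differed by 0.77 between 60 and 12 days (95% interval 0.06 to 1.49, adjusted p = 0.107). Abca1, the exporter that feeds nascent lipoproteins, averaged 0.51 ± 0.01 at 60 days and 0.79 ± 0.18 at 5 days, and its interval in that comparison ran from -0.97 to 0.40. Soat1, which esterifies cholesterol for storage, had the widest interval of the 5, -0.78 to 1.81 around 0.51.

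Genes near the pathway were counted by list. Of 13 measured targets of SREBP in fatty acid synthesis, 1 fell in 12-day against 5-day cultures, 6 fell and 1 rose in 60-day against 12-day cultures, and 7 fell and 1 rose in 60-day against 5-day cultures, where 6.29%, 13.0% and 18.0% of all genes fell and 12.4%, 25.2% and 35.3% were called. The largest of these changes were in genes that make unsaturated or longer acyl chains. Scd, a stearoyl-CoA desaturase, read 1.57, 1.89 and 1.03 at 5 days, 0.38, 0.25 and -0.18 at 12 days and -3.40, -5.07 and -3.77 at 60 days, where 1 of the 3 values was not well above background. Elovl6, an elongase, was lower at 60 days than at 5 days by 4.32 ± 0.51 (adjusted p = 6.96e-05) and Fads1, a desaturase of polyunsaturated chains, by 3.20 ± 0.31 (adjusted p = 1.65e-05).

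The machinery that cuts SREBPs and degrades sterol enzymes gave no call. None of its 8 measured genes, which include the proteases Mbtps1 and Mbtps2, passed the limma test in any comparison, where 12.4%, 25.2% and 35.3% of all genes did, and none had an unadjusted p under 0.05. Among 14 other genes of sterol carriage and oxidation, 1 rose and 1 fell, then 2 rose and 2 fell, then 2 rose and 3 fell in the comparisons of 12 with 5, 60 with 12 and 60 with 5 days, shares near the 12.4%, 25.2% and 35.3% of all genes called. Cyp27a1, which makes an oxysterol that activates liver X receptors, was higher at 60 days than at 5 days by 3.14 ± 0.41 (adjusted p = 0.000133), and Stard5, a sterol and bile acid binding protein, was lower by 1.90 ± 0.37 (adjusted p = 0.00216), with 1 of its 3 60-day values not well above background. Of 5 measured genes of liver X receptors, their partner receptors and targets, Lpcat3 rose in 60-day against 12-day cultures (1.33 ± 0.34, adjusted p = 0.0141) and Rxra fell in 60-day against 5-day cultures (adjusted p = 0.0126), where it was not well above background on any 60-day array. Those comparisons called 25.2% and 35.3% of all genes. Of 8 isoprenoid users, Dhdds, which builds dolichol, was the only call, at 1.13 ± 0.34 in 60-day against 12-day cultures (adjusted p = 0.0319), where 25.2% of all genes were called.

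The scale of the arrays bears on every direction given here. Spike-in controls added to the RNA, measured on the 75th percentile scale, differed by 1.32 on average between 12- and 5-day arrays, -0.96 between 60- and 12-day arrays and 0.36 between 60- and 5-day arrays, and by slide from 0.02 to 2.19, -1.53 to -0.30 and -0.28 to 1.13. Scaled to these controls, the median of all genes was -1.28, 0.80 and -0.45 in the 3 comparisons and that of the 30 members -1.82, 0.08 and -1.74. On that scale 2, 0 and 8 members were called in place of 2, 13 and 19. The 13 genes that fell in 60-day against 12-day cultures kept a negative sign, from -0.27 for Srebf1 to -1.47 for Tm7sf2, while 7 of the 8 uncalled negative differences turned positive: Ebp to 0.76, Lbr to 0.75, Stard4 to 0.57, Srebf2 to 0.46, Hmgcs1 to 0.12, Sc5d to 0.09 and Abcg1 to 0.08. In 12-day against 5-day cultures all 6 positive differences, none of them called, turned negative (Ggps1, Hsd17b7, Lbr, Srebf2, Scap and Abcg1), and in 60-day against 5-day cultures the uncalled ones of Srebf2 and Npc2 did. In 60-day against 5-day cultures the 8 still called were among the 17 that fell, with Tm7sf2 at -4.38 (adjusted p = 1.07e-05), and Ggps1 and Scap were uncalled at 1.39 and 0.78. The falls after 12 days are thus measured against the rest of each array's genes. The calls also rested on the number of slides: without replicate 2, 0, 2 and 11 members were called in the 3 comparisons, without replicate 3, 0, 4 and 16, and without replicate 1, 0, 10 and 16. In 12-day against 5-day cultures these 3 limma fits left 2, 3 and 5 members at an unadjusted p under 0.05, in the same order.

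**Figure D5:**
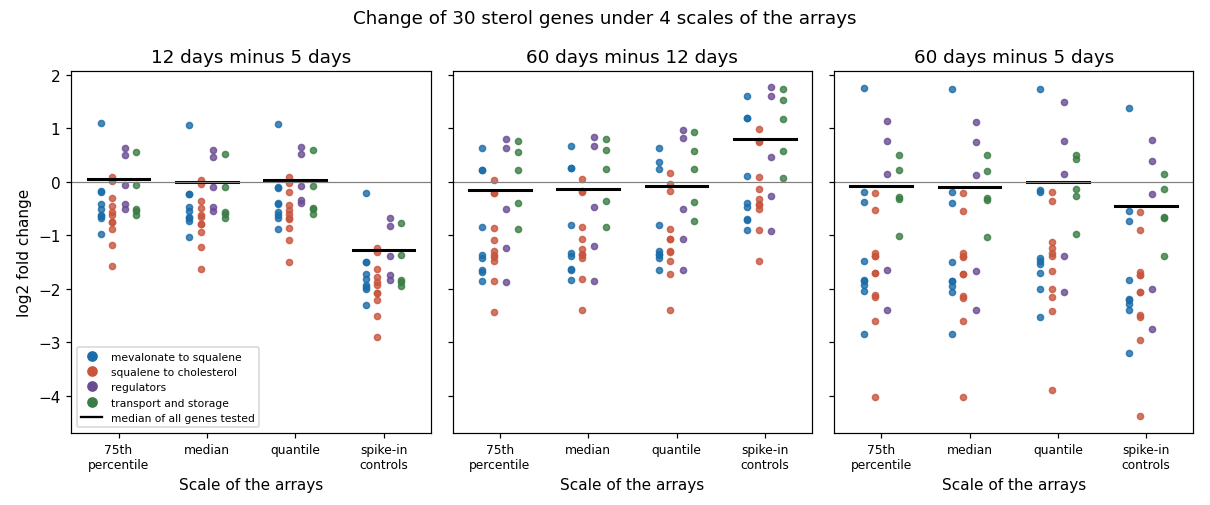
Log2 fold change of the 30 genes in 3 comparisons of ages under 4 scales of the arrays (75th percentile, median, quantile, spike-in controls); points are genes, coloured by role, and black bars the median of all genes tested. On the spike-in scale all genes of a comparison shift by the same amount, with medians of -1.28, 0.80 and -0.45. The 18, 16 and 19 of the 20 enzymes below the bar there are thus carried over from the 75th percentile scale and are no separate result.

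Promoter letters were searched for motifs that SREBPs and their partner factors are known to bind. RefSeq promoters of the GRCr8 build, from 250 bases before to 50 after the start of the gene, were in the table for 25 of the 30 members. Each motif was searched on both strands, and the shares are of all 33469 promoters and of those of 9189 other genes tested here. The sterol regulatory element core TCACNCCAC was found in none of the 25 members, in 1.12% of all promoters and in 1.1% of the other tested genes. Its shorter form CACNCCAC, which the longer one contains, was found in Acat2, Ebp and Insig1, 12% of members, against 5.8% and 5.99%. The NF-Y box CCAAT was found in 20 members (80%), against 37.5% and 39%, and in 14 of the 16 members with a promoter that fell in 60-day against 5-day cultures. Ggps1, Insig2, Lbr, Npc2, Soat1 and Srebf2, which did not fall, hold it too, and a link between the box and the falls was not tested. The GC box GGGCGG was found in 21 members (84%), against 33.1% and 60.7%, and the E box CACGTG in 4 members (16%), against 6.42% and 9.79%. Median GC content was 63.5% in member promoters, 60.2% in those of the other tested genes and 51.7% in all. A match describes letters and is not a bound site, and the absence of one says only that these letters are not in this window.

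The promoters below belong to members that fell and were chosen to show many, few and no NF-Y boxes. They are printed 5′ to 3′ on the strand of the gene, with the NF-Y box of either strand in capitals. Nsdhl and Mvk hold 5 boxes each, Tm7sf2 2 and Insig1 1, while Acat2, which fell 7.15-fold, holds none.
Nsdhl promoter, chrX:155817110-155817409, plus strand: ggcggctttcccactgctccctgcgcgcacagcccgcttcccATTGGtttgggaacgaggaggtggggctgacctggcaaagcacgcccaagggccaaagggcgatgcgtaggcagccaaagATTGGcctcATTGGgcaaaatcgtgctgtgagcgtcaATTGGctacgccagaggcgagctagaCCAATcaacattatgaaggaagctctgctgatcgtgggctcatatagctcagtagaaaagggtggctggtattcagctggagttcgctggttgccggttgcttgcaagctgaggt
Mvk promoter, chr12:47819454-47819753, minus strand: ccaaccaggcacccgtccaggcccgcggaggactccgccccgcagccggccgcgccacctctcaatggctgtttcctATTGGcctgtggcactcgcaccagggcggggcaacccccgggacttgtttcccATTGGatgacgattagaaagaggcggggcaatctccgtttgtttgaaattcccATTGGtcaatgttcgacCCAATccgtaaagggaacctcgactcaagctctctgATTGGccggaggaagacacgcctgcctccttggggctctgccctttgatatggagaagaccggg
Tm7sf2 promoter, chr1:212789492-212789791, minus strand: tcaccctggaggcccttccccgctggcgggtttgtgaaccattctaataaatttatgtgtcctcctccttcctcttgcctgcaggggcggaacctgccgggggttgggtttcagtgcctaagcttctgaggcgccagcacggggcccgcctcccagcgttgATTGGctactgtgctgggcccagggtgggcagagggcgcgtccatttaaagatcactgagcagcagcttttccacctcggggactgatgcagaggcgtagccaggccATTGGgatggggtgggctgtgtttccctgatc
Insig1 promoter, chr4:8057720-8058019, minus strand: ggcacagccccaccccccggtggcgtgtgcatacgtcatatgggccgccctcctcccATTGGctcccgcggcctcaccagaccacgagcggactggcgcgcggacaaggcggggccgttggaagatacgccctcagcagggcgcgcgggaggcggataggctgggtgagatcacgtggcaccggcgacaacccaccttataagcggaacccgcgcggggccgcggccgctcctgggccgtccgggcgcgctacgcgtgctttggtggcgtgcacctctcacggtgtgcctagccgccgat
Acat2 promoter, chr1:50100590-50100889, plus strand: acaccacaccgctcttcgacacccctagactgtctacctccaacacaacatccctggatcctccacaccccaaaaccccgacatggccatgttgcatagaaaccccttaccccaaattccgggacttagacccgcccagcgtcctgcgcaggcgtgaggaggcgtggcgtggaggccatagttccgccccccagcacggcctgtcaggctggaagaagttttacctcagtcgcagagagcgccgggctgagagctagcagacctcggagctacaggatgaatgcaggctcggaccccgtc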

How the data were processed

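Labelled RNA of 9 Sertoli cell cultures was measured on 1-colour whole-genome rat arrays, from total RNA primed with oligo-dT, per the labels' protocols. The deposited scans hold intensity values that Agilent Feature Extraction had background-subtracted and detrended within each array, per the file headers (version 9.5.3.1, scanner G2505B, build rn3 for replicate 1; 10.5.1.1, G2505C, rn4 for replicates 2 and 3). The authors' deposited table holds log2 values, which equal the log2 processed signal minus the 75th percentile of the array. The files of replicate 2 hold no gene names and no mean signal.

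Repeat spots that passed the quality flags were averaged, and 254 of 41012 probes with no such spot on at least 1 array were left out. Each array's 75th percentile was subtracted from its log2 processed signal. A probe was kept if 1 age had 2 or more arrays with it well above background (26599 probes), and the brightest stood for its gene. Names were matched to RefSeq by accession (11060 probes), symbol (5129) or older symbol (3438); 21343 kept the name in the file. limma 3.58.1 (R 4.3.3) fitted a mean per age to 9 arrays, with 2-sided tests of 3 contrasts adjusted over 22651 genes; it was tested on simulated data first. Tables and plots were made with Python 3.11.15, pandas 2.3.3, numpy 2.4.6 and matplotlib 3.10.9. The number of arrays limits the precision.

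Every member on the array is named, and the related and marker lists were given as counts with at most 3 called genes per list and comparison. Members and lists were chosen with earlier results of these data known. After the mean of each age was taken off, arrays of the same replicate number correlated at 0.18 to 0.601 (9 pairs) and other arrays at -0.514 to 0.094 (18 pairs), so the number, which is also the slide, was taken to pair arrays, and its block was an alternative. The other alternatives were the filter, the scale, the background correction, the choice of probe, the deposited table, the arrays fitted, and leaving out arrays.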

Additional observations from a re-analysis of the deposited data

How the results depend on the processing

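The counts of called members (2 in 12-day against 5-day, 13 in 60-day against 12-day and 19 in 60-day against 5-day cultures) were compared over 23 alternatives each, and no called gene changed sign under any of them. In several alternatives the sign could not change. The replicate block, the fit of only the 6 arrays and the test of every probe leave each fold change as it was. So does leaving out an array of the age not compared. Such settings bear on the calls only. In 12-day against 5-day cultures 1 member was called with no filter on dim probes, with only the 6 arrays of those ages, and with every probe tested, and 0 were called with normexp on replicates 1 and 3 (8 at an unadjusted p under 0.05 in limma). Normexp on those replicates, the only ones with a mean signal, gave 2 in 60-day against 12-day and 9 in 60-day against 5-day cultures; without replicate 2, on the processed signal of the same 6 arrays, the counts were 2 and 11. The spike-in scale gave 0 in 60-day against 12-day cultures (2 at an unadjusted p under 0.05, both higher) and 8 in 60-day against 5-day cultures; among all called genes the share that rose was 3.85%, 87.4% and 39.8% in the 3 comparisons on that scale, and 49.4%, 48.5% and 48.9% on the 75th percentile scale. The replicate block gave 3, 16 and 19 and changed no other call among the members than those of Acat2, Lss, Sc5d and Abcg1. Leaving out 1 array or 1 replicate gave 0 to 2, 2 to 14 and 11 to 19 called members. The falls of Acat2, Mvk, Sqle, Tm7sf2 and Nsdhl in 60-day against 5-day cultures were called in all 23 alternatives. The 95% intervals given with uncalled genes show which changes 9 arrays could not tell from 0, and a signal near background limits Ggps1, Lbr and Srebf2 most.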
